A study of Homo sapiens with 18 samples.

Results

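The SLC25 family is the set of nuclear genes for the mitochondrial carriers, and its expression was followed through epithelial-mesenchymal transition (EMT) in 3 lung cancer cell lines. Members were the rows whose symbol is SLC25A followed by a number. There were 47 of them among the 19849 genes of the deposited table, each read by 1 probe set. The RefSeq gene table matched all 47 by their gene identifiers. A549, HCC827 and NCI-H358 are established human non-small cell lung cancer lines, HCC827 with mutant EGFR. Each was profiled as untreated parental cells and as the mesenchymal derivative labelled EMT, with 3 arrays in each of the 6 groups. The mesenchymal derivatives had been grown with 2 ng/ml TGFβ for 3 weeks by the labels (the methods give a range of weeks that differs between the lines), and the day before lysis their medium was replaced by medium that held no TGFβ. All groups were grown in the same serum-containing medium with glutamine. Levels are the log2 values that the RMA algorithm (a background correction, quantile normalization and probe set summary) gave on an Affymetrix array, so that a difference of 1 is a 2-fold change. Levels are compared between groups for the same gene only, because probe sets differ in how brightly they read.

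The carriers of this family mostly sit in the inner mitochondrial membrane, which most metabolites cannot cross without them. Such an inner membrane carrier swaps or co-transports a small set of substrates, and so links the reactions of the matrix with those of the cytosol: ADP and phosphate enter and ATP leaves, citrate leaves to supply acetyl groups for lipid synthesis, and malate, aspartate and glutamate carry reducing equivalents across. In tumor cells the citrate, aspartate and glutathione carriers in particular are known for their part in biosynthesis and redox balance. The members are described below by what they carry.

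The EMT state of the arrays was checked first. CDH1 (E-cadherin) fell in all 3 lines, with log2 changes of -5.81, -2.95 and -3.94 in A549, HCC827 and NCI-H358, and so did EPCAM (-3.03, -2.69 and -2.92). The mesenchymal genes CDH2, VIM, ZEB1 and FN1 rose in all 3 lines, while SNAI1 rose in HCC827 and NCI-H358 and differed by 0.52 in A549, under the fold used here. The epithelial keratins KRT7, KRT8, KRT18 and KRT19 were all above the lower quartile of all group means (4.67) in every group. All 4 fell in HCC827 and in NCI-H358, with median log2 changes of -1.84 and -1.25, and KRT19 fell in A549 (-3.19). None of 8 markers of blood, endothelium, liver, glia and muscle was called upon EMT in any line by limma, and 1 of them had an adjusted p below 0.05 (PECAM1 in HCC827, with a log2 difference of 0.41). Array medians lay between 6.31 and 6.47, and the SD of the log2 differences between arrays of the same group was 0.163 to 0.282, with the highest values between 1 parental HCC827 array and the others of its group.

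Among the SLC25 genes, SLC25A37 rose most and SLC25A21 and SLC25A10 fell most upon EMT, in different lines. A gene was called when limma gave a Benjamini-Hochberg adjusted p below 0.05 over all genes and the fold change was above 1.5. By this rule 16 of the 47 members were called in at least 1 line and 31 in none, and 37.0% of all genes were called in at least 1 line. Of the 31, 19 (61.3%) had an adjusted p below 0.05 in at least 1 line with a smaller fold, beside 50.5% of all genes called in none. With the adjusted p alone 23, 19 and 21 members passed in A549, HCC827 and NCI-H358, beside 43.4%, 45.8% and 41.4% of all genes. The calls leaned downward in A549, where 9 members were lower and 2 higher in the mesenchymal cells. Among all genes, 10.0% were called lower there and 7.33% higher. In HCC827, 5 members were lower, beside 12.5% of all genes, and 2 were higher, beside 9.66%. NCI-H358 had 3 members lower and 2 higher, against 10.1% and 8.72% of all genes. With 47 members, shares of this size rest on few genes. Centring each array on its median reduced the members called lower from 9 to 7 in A549 and from 5 to 4 in HCC827. It changed the split in NCI-H358 to 4 higher and 3 lower. Over the members the median log2 changes in A549, HCC827 and NCI-H358 were -0.04, -0.12 and 0.0026, and over all genes they were -0.021, 0.0051 and 0.015. No member in any line reached the study's thresholds (fold above 5 and adjusted p below 1e-05). The study used these to name metabolism-associated genes that changed in all 3 lines. RNA was taken from whole cultures, so a lower level in fewer cells cannot be told apart from less RNA in every cell.

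**Figure D1:**
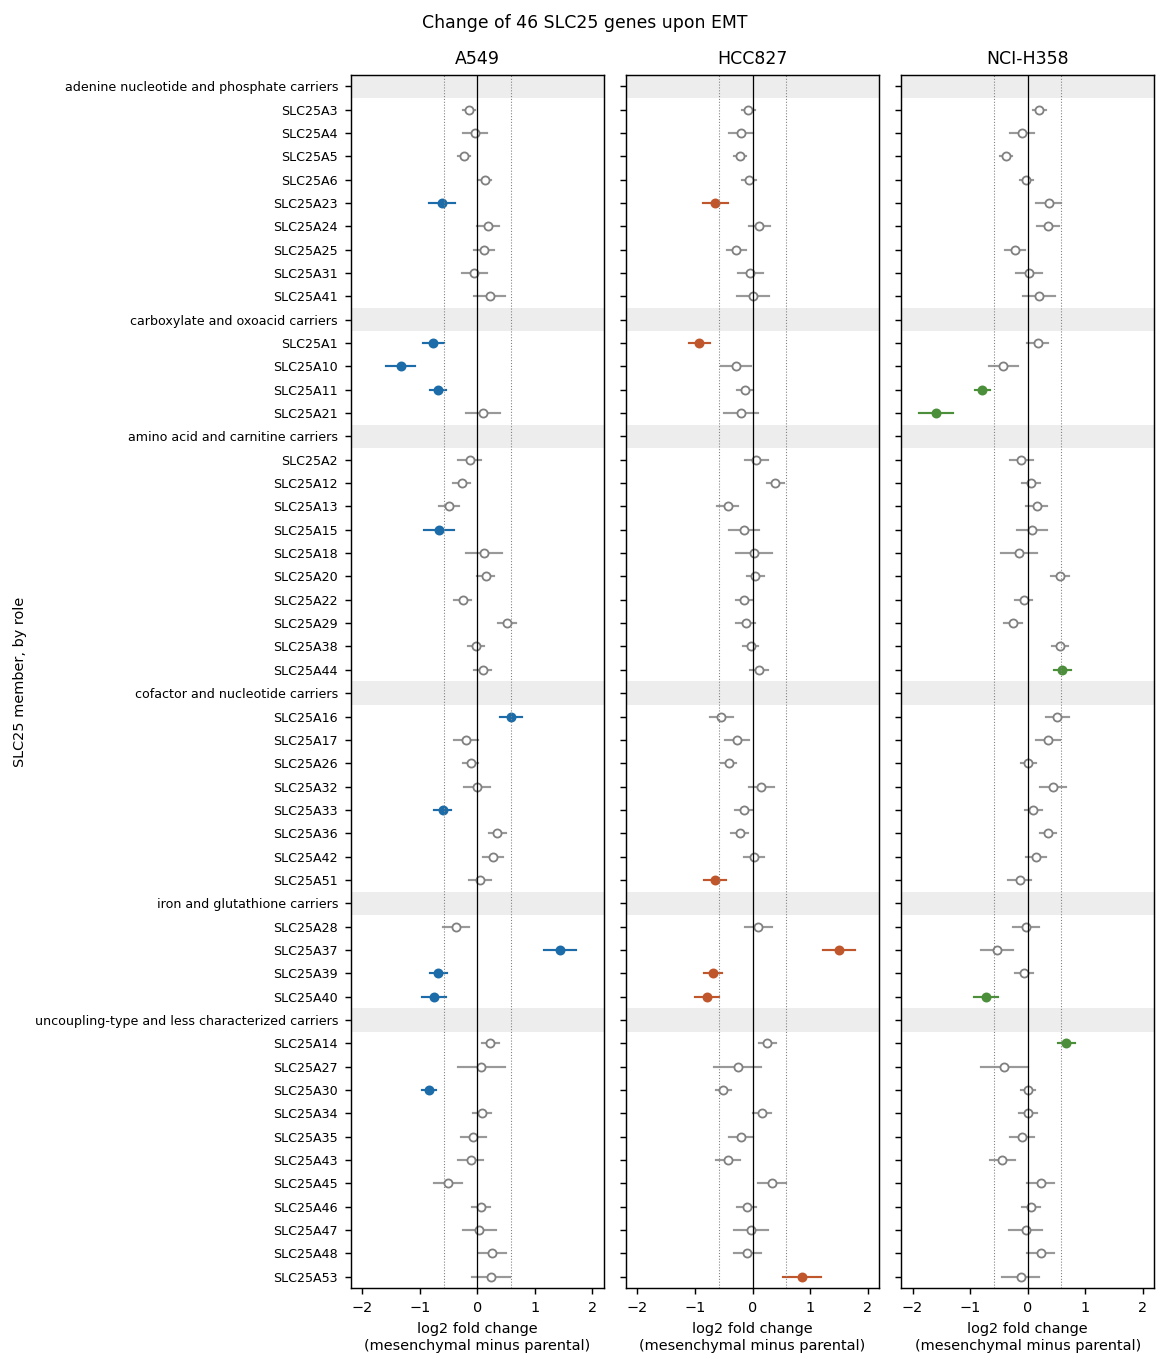
Log2 fold change of 46 of the 47 SLC25 genes (x axis, mesenchymal minus parental, with its 95% confidence interval from limma) in A549, HCC827 and NCI-H358, grouped by what the members carry (y axis). Filled points passed the adjusted p and the fold of 1.5 marked by the dotted lines. From left to right they number 11, 7 and 5, and SLC25A40 is the member filled in all 3.

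The 4 iron and glutathione carriers held the member that fell in every line and the member that rose most. SLC25A40 takes glutathione into the matrix, as does its close relative SLC25A39, and SLC25A40 was the only member called in 1 direction in all 3 lines, as 2.05% of all genes were in the lower direction. In A549 it read 8.84, 8.77 and 9.03 in the parental arrays and 8.02, 8.22 and 8.12 in the mesenchymal arrays (log2 change -0.76, SE 0.10, adjusted p = 6.18e-06). In HCC827 the parental arrays read 9.28, 9.08 and 9.11 and the mesenchymal arrays 8.34, 8.47 and 8.29 (-0.79, adjusted p = 2.68e-06). In NCI-H358 the values were 9.02, 9.04 and 9.35 before and 8.48, 8.44 and 8.31 after EMT (-0.73, adjusted p = 9.22e-06). Thus the 9 mesenchymal arrays all lay below the 9 parental arrays, whichever line they came from. SLC25A39 fell in A549 and HCC827. Its A549 arrays went from 9.33, 9.20 and 9.10 to 8.51, 8.47 and 8.63 (-0.68, adjusted p = 6.75e-07), and its HCC827 arrays from 9.90, 10.03 and 10.05 to 9.34, 9.28 and 9.28 (-0.69, adjusted p = 3.76e-07). The groups did not overlap in either line. In NCI-H358, where the parental arrays of 8.95, 9.08 and 8.91 overlapped the mesenchymal arrays of 8.96, 8.89 and 8.91, the log2 difference was -0.06 with a 95% confidence interval of -0.22 to 0.09.

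SLC25A37 (mitoferrin-1), which brings iron into mitochondria for heme and iron-sulfur cluster synthesis, went the other way. In A549 it rose 2.72-fold, from 7.91, 8.05 and 8.09 in parental arrays to 9.28, 9.54 and 9.55 in mesenchymal arrays (adjusted p = 9.62e-08). In HCC827 it rose 2.83-fold, from 7.98, 7.73 and 7.57 to 9.15, 9.24 and 9.41 (adjusted p = 3.99e-08). NCI-H358 differed: its parental arrays read 9.29, 9.44 and 9.70 and its mesenchymal arrays 8.93, 8.74 and 9.16, a log2 difference of -0.54 (SE 0.13, adjusted p = 0.0029) that was short of the fold. Parental NCI-H358 cells read 1.46 above parental A549 and 1.72 above parental HCC827 (adjusted p = 2.9e-08 and 5.3e-09), and the mesenchymal means were 9.46, 9.26 and 8.94 in A549, HCC827 and NCI-H358. The change in NCI-H358 was lower than that in A549 by 1.98 and than that in HCC827 by 2.04, tested as contrasts of the same fit (adjusted p = 1.75e-07 and 1.62e-07). The paralog SLC25A28 (mitoferrin-2) was not called upon EMT, with log2 changes of -0.37, 0.10 and -0.02 in A549, HCC827 and NCI-H358. Over the 4 members the median changes in the lines, in the same order, were -0.52, -0.29 and -0.30.

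**Figure D2:**
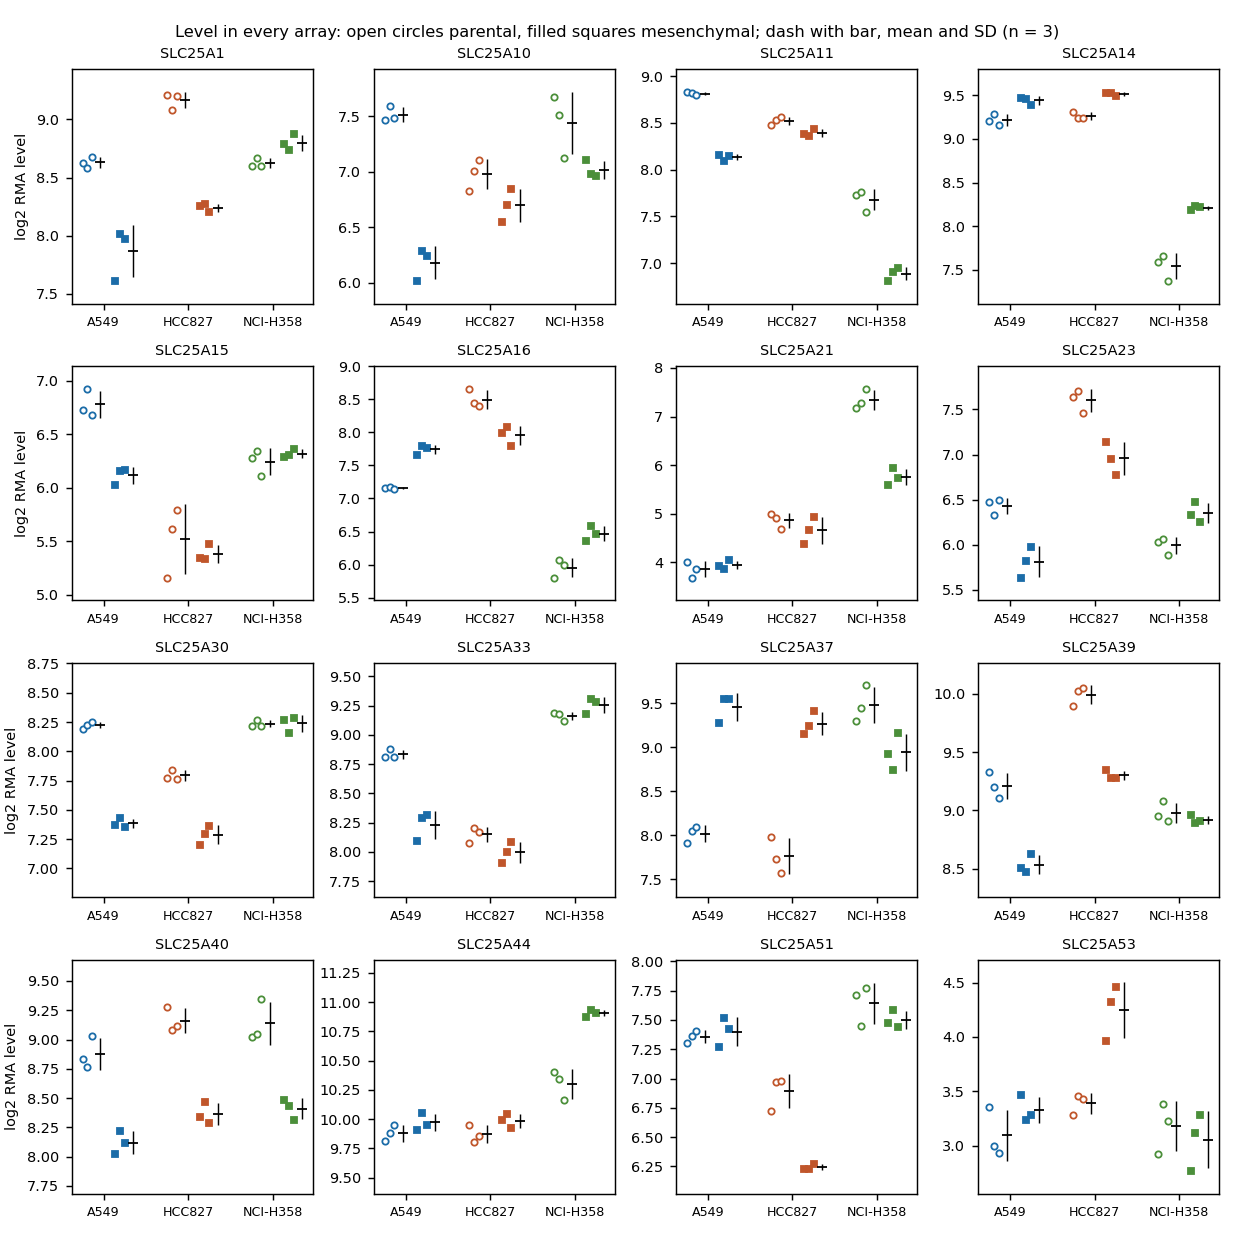
Log2 RMA level (y axis) of the 16 SLC25 genes called in at least 1 line in each of the 18 arrays, by cell line (x axis), with parental arrays as open circles and mesenchymal arrays as filled squares, and the mean with its SD (n = 3) beside them. The y axes differ between panels and each spans at least 2 log2 units. SLC25A40 shows the same drop in 3 lines, SLC25A37 rises in A549 and HCC827, and SLC25A21 drops from a high parental level in NCI-H358.

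The 4 carboxylate and oxoacid carriers were called downward or not at all, namely 3 of 4 in A549, 1 of 4 in HCC827 and 2 of 4 in NCI-H358, and the members called differed from line to line. Over all genes, 10.0%, 12.5% and 10.1% were called lower in these lines, and counts among 4 members rest on few genes. SLC25A1, the citrate carrier that exports citrate to the cytosol, fell in A549 and HCC827. Its A549 values went from 8.63, 8.58 and 8.68 to 7.61, 8.02 and 7.97 (-0.76, adjusted p = 1.51e-06), and its HCC827 values from 9.21, 9.08 and 9.20 to 8.25, 8.27 and 8.20 (-0.92, adjusted p = 1.03e-07). Parental and mesenchymal arrays were well apart in both. In NCI-H358 they read 8.60, 8.67 and 8.60 against 8.79, 8.74 and 8.87, a difference of 0.18 that did not pass (adjusted p = 0.122), and the change in NCI-H358 was above that in A549 by 0.94 and above that in HCC827 by 1.10 (adjusted p = 8.57e-06 and 1.74e-06). SLC25A10, the dicarboxylate carrier that exchanges malate or succinate for phosphate, had the lowest change of any member in A549. There it dropped 2.52-fold, from 7.47, 7.59 and 7.49 to 6.02, 6.28 and 6.24 (adjusted p = 1.04e-07). In HCC827 the change was -0.28 (adjusted p = 0.0698) with overlapping arrays, and in NCI-H358 it was -0.42 (adjusted p = 0.00954), under the fold.

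SLC25A11, the oxoglutarate carrier of the malate-aspartate shuttle, fell in A549 and NCI-H358. It went from 8.83, 8.81 and 8.80 to 8.15, 8.10 and 8.15 in A549 (-0.68, adjusted p = 1.32e-07) and from 7.72, 7.76 and 7.55 to 6.81, 6.90 and 6.95 in NCI-H358 (-0.79, adjusted p = 1.77e-08). In HCC827 it differed by -0.13 (adjusted p = 0.11), and the change in NCI-H358 was lower than this by 0.66 (adjusted p = 1.57e-05). SLC25A21 exchanges oxoadipate, an intermediate of lysine and tryptophan breakdown, for oxoglutarate, and gave the lowest change of all members. In NCI-H358 it fell 3.00-fold, from 7.17, 7.29 and 7.57 to 5.59, 5.93 and 5.74 (adjusted p = 5.61e-08). Parental HCC827 arrays read 4.99, 4.92 and 4.69 and parental A549 arrays 4.02, 3.69 and 3.87, both far below parental NCI-H358, and in these lines the parental and mesenchymal arrays overlapped. Both A549 means and the mesenchymal HCC827 mean (4.66) lay in the lower quartile of all group means (4.67), so the size of the change in these lines is uncertain. The change in NCI-H358 was below that in A549 by 1.68 and below that in HCC827 by 1.38 (adjusted p = 2.63e-06 and 2.57e-05).

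The promoters of 4 of these falling members are printed: both glutathione carriers, the citrate carrier, and SLC25A21 as the member that fell in NCI-H358 alone. How alike they are in sequence was not measured. Each run is the 250 bases before the RefSeq transcript start on GRCh38.p14, written on the gene's strand, with CCAAT boxes, SMAD elements (CAGAC, the core that TGFβ-activated SMAD proteins bind) and GC boxes (GGGCGG) in capitals where they occur on either strand.
SLC25A40 (chr7:87876361-87876610, minus strand): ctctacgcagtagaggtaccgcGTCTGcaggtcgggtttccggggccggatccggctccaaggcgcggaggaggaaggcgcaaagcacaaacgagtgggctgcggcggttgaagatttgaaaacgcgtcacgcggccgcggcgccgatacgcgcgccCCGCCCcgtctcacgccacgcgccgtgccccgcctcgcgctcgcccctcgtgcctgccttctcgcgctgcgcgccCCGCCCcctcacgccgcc
SLC25A39 (chr17:44324824-44325073, minus strand): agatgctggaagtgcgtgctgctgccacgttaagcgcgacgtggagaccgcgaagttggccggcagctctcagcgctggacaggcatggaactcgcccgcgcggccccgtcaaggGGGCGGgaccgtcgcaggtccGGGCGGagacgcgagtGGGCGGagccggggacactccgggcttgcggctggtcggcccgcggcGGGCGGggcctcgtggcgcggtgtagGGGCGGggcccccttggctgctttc
SLC25A1 (chr22:19178737-19178986, minus strand): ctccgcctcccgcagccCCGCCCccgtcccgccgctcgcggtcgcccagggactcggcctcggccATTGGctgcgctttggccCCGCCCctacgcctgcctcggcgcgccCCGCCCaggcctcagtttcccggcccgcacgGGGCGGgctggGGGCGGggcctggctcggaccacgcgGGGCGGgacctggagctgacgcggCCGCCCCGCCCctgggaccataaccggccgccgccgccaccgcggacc
SLC25A21 (chr14:37172607-37172856, minus strand): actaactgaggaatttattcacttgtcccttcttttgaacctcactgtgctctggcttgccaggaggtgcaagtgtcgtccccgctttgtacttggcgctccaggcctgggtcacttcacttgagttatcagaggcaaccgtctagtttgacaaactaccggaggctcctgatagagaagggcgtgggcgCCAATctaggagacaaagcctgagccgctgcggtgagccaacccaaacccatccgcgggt
SLC25A40 held 2 GC boxes and 1 SMAD element in a stretch of 72.8% G and C. SLC25A39 held 5 GC boxes and SLC25A1 held 8 of them, some overlapping, plus 1 CCAAT box, at 74.0% and 81.6% G and C. SLC25A21 had no GC box, 1 CCAAT box and 54.8% G and C, near the median of 58.0% over all windows. Of the falling members not printed, SLC25A11, called in A549 and NCI-H358, also had no GC box, at 57.6% G and C. SLC25A10, called in A549, held 2 GC boxes at 82.0%. Of the 47 members, 39 had such a window in the RefSeq table, 49 windows in all. Searched on both strands in these 250 bases, a GC box was present in 65.3% of the member windows and 42.6% of all 35116 windows, a CCAAT box in 42.9% and 32.0%, and a SMAD element in 34.7% and 38.0%. The E-box CAGGTG, which ZEB and SNAI proteins bind, was in 30.6% of member windows and 17.5% of all windows. It was in none of the promoters of the falling members SLC25A40, SLC25A39, SLC25A1, SLC25A21, SLC25A11 and SLC25A10. The core CATGCGCA of the mitochondrial regulator NRF1 was in 0 of the 49 and in 1.81% of all. GC boxes can overlap one another. These are matches of letters, not sites known to be bound.

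Of the 10 amino acid and carnitine carriers, 1 fell in A549, 1 rose in NCI-H358 and none was called in HCC827, where limma gave 2 an adjusted p below 0.05. Among all genes, 10.0% were called lower in A549 and 8.72% higher in NCI-H358, and 45.8% had an adjusted p below 0.05 in HCC827. SLC25A15, which brings ornithine into the matrix for the urea cycle, fell in A549 from 6.73, 6.93 and 6.68 to 6.03, 6.16 and 6.17 (-0.66, adjusted p = 0.00027), with no overlap. Its parental and mesenchymal arrays overlapped in HCC827 and in NCI-H358, where the differences were -0.14 and 0.07. SLC25A44, a carrier of branched-chain amino acids, rose in NCI-H358 from 10.40, 10.34 and 10.16 to 10.88, 10.93 and 10.91 (0.60, adjusted p = 2.38e-06). This call stands close to the fold threshold, since without parental array 3 (arrays are numbered in the order of deposition, as names) the change was 0.53. Several members of this group had a small adjusted p and a fold under 1.5. SLC25A20, the carnitine-acylcarnitine carrier that admits fatty acids for oxidation, differed by 0.56 in NCI-H358 (adjusted p = 5.37e-06), and SLC25A38, which carries glycine for heme synthesis, also by 0.56 there (adjusted p = 1.26e-06). The basic amino acid carrier SLC25A29 differed by 0.52 in A549 (adjusted p = 3.12e-05) and by -0.26 in NCI-H358 (adjusted p = 0.0118). The aspartate-glutamate carriers SLC25A12 (aralar) and SLC25A13 (citrin) drive the malate-aspartate shuttle together with SLC25A11. SLC25A13 differed by -0.50 and -0.43 in A549 and HCC827 and by 0.15 in NCI-H358, and the change in NCI-H358 was higher than in the other two by 0.65 and 0.59 (adjusted p = 0.000265 and 0.000757). SLC25A12 differed by -0.27 in A549 and 0.39 in HCC827, a gap of 0.67 that passed (adjusted p = 3.41e-05). Median changes of the 10 were -0.08, -0.01 and 0.07.

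The 9 adenine nucleotide and phosphate carriers, which serve ATP synthesis, had 1 call each in A549 and HCC827 and none in NCI-H358, where limma gave 5 of them an adjusted p below 0.05 with smaller folds. In A549, HCC827 and NCI-H358, 17.4%, 22.2% and 18.8% of all genes were called in either direction, and 41.4% had an adjusted p below 0.05 in NCI-H358. SLC25A23, a calcium-dependent ATP-Mg/phosphate carrier, was called in both A549 and HCC827. In A549 it fell from 6.47, 6.33 and 6.49 to 5.63, 5.82 and 5.98 (-0.62, adjusted p = 0.000123), and in HCC827 from 7.64, 7.70 and 7.46 to 7.14, 6.95 and 6.78 (-0.64, adjusted p = 6.65e-05). The groups did not overlap, but both calls sat near the fold threshold: the change was -0.53 without mesenchymal A549 array 1, -0.55 without mesenchymal HCC827 array 3, and -0.55 and -0.58 after centring each array on its median. In NCI-H358 it read 6.03, 6.06 and 5.89 before and 6.33, 6.47 and 6.25 after EMT (0.36, adjusted p = 0.0104), and the change there was higher by 0.98 than in A549 and by 1.005 than in HCC827 (adjusted p = 4.35e-05 and 3.99e-05). The main ADP/ATP carrier of proliferating cells, SLC25A5, had small differences in 1 direction in all 3 lines, of -0.22, -0.22 and -0.38 (adjusted p = 0.0012, 0.00138 and 5.63e-06), each under the fold. SLC25A6, another ADP/ATP carrier, differed by 0.13, -0.06 and -0.02, and SLC25A3, the phosphate carrier, by -0.15, -0.07 and 0.20. SLC25A4 and the testis form SLC25A31 also differed by at most 0.20 in size. SLC25A31 was 1 of 3 members, with SLC25A2 and SLC25A53, whose mean was in the lower quartile of all group means in all 6 groups.

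Among the 9 cofactor and nucleotide carriers, SLC25A16 and SLC25A33 were called in A549 and SLC25A51 in HCC827, and none in NCI-H358, where limma gave 5 an adjusted p below 0.05, beside 41.4% of all genes. Calls in either direction made up 17.4%, 22.2% and 18.8% of all genes in A549, HCC827 and NCI-H358. SLC25A16, which has been linked to the import of coenzyme A or its precursor, read 7.16, 7.17 and 7.14 in parental A549 and 7.66, 7.80 and 7.77 in mesenchymal A549 (0.59, adjusted p = 5.82e-05). It was the call closest to the threshold: without parental array 3 the change was 0.58, and without mesenchymal array 2 or 3 it was 0.56 or 0.57, each under the fold. In HCC827 it differed the other way, from 8.66, 8.44 and 8.39 to 7.99, 8.08 and 7.80 (-0.54, adjusted p = 0.000102), short of the fold, and in NCI-H358 by 0.51 (adjusted p = 0.000216). The difference of the changes was called: HCC827 was lower than A549 by 1.13 and NCI-H358 higher than HCC827 by 1.06 (adjusted p = 2.15e-06 and 5.94e-06). SLC25A33, a pyrimidine nucleotide carrier, fell in A549 from 8.81, 8.88 and 8.81 to 8.09, 8.29 and 8.31 (-0.60, adjusted p = 2.24e-06). Its fold dropped under 1.5 without parental array 2 (-0.58), without mesenchymal array 1 (-0.53) and after centring (-0.53). SLC25A51 imports NAD+ into mitochondria, and fell in HCC827 from 6.73, 6.97 and 6.98 to 6.23, 6.23 and 6.27 (-0.65, adjusted p = 1.3e-05). In A549 and NCI-H358 its arrays overlapped, with differences of 0.04 and -0.14. The folate carrier SLC25A32 differed by 0.44 in NCI-H358, under the fold.

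The remaining 11 members resemble uncoupling proteins or have less settled substrates. SLC25A30, a kidney-type relative of the uncoupling proteins, fell in A549 from 8.19, 8.23 and 8.25 to 7.37, 7.43 and 7.35 (-0.84, SE 0.06, adjusted p = 4.19e-09). In HCC827 it went from 7.78, 7.84 and 7.76 to 7.20, 7.30 and 7.36, a log2 difference of -0.51 (adjusted p = 1.65e-06) under the fold, with no overlap. NCI-H358 arrays of both states lay between 8.16 and 8.29, and its change was above that in A549 by 0.84 (adjusted p = 4.08e-07). SLC25A14, a brain-type uncoupling protein relative, rose in NCI-H358 from 7.58, 7.66 and 7.37 to 8.19, 8.23 and 8.22 (0.67, adjusted p = 3.86e-07). In A549 and HCC827, where its parental level was higher by 1.68 and 1.72, the mesenchymal arrays were also above the parental ones, by 0.22 and 0.26 (adjusted p = 0.0138 and 0.00547). SLC25A53 rose in HCC827 from 3.28, 3.45 and 3.43 to 3.96, 4.32 and 4.46 (0.86, adjusted p = 0.000177), although all these values lie in the lower quartile. The other 8 members of this group were not called upon EMT in any line.

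The lines shared part of these calls. A549 and HCC827 had 5 members called in 1 direction: SLC25A37 up and SLC25A1, SLC25A23, SLC25A39 and SLC25A40 down. They are 10.6% of the members, and 6.84% of all genes were called in 1 direction in both lines. As shares of the calls, they are 45.5% of the 11 in A549 and 71.4% of the 7 in HCC827, where the shares over all genes were 39.4% and 30.8%. NCI-H358 shared SLC25A40 with both and SLC25A11 with A549. No member was called in opposite directions in 2 lines. Tested directly, the changes differed for 8 members between HCC827 and A549 (26.3% of all genes), for 12 between NCI-H358 and A549 (26.0%) and for 12 between NCI-H358 and HCC827 (22.8%). These contrasts share arrays of the same lines.

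**Figure D3:**
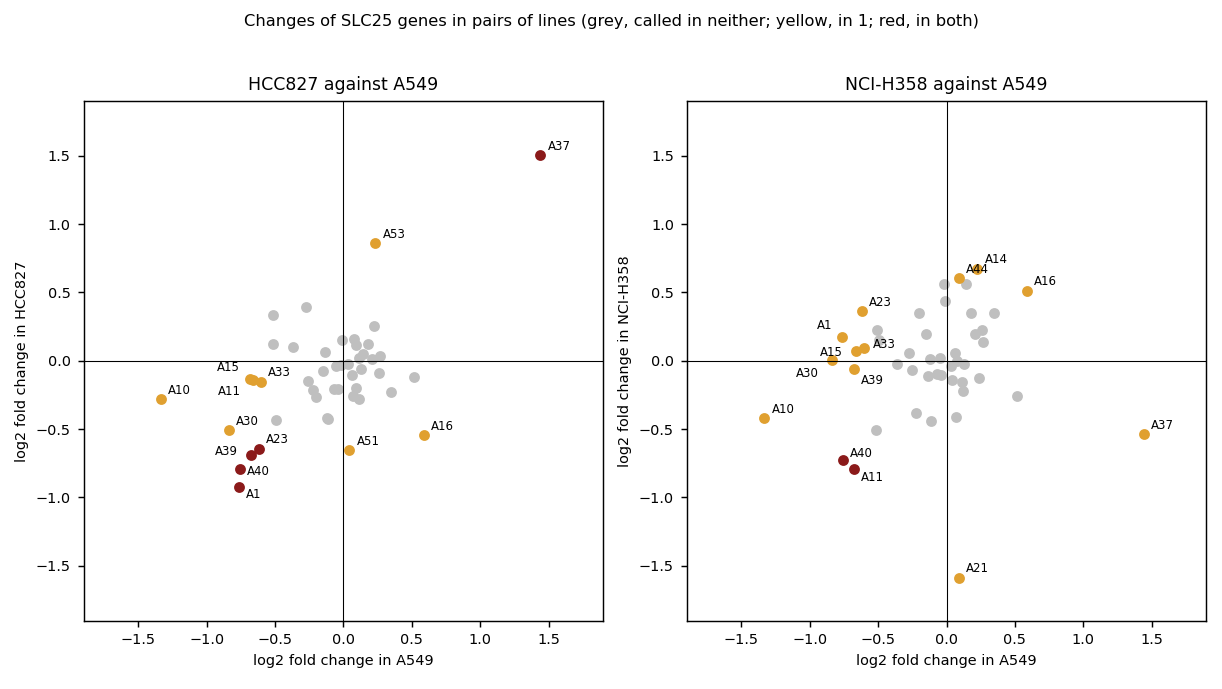
Log2 fold changes of the 47 SLC25 genes in HCC827 (left, y axis) and in NCI-H358 (right, y axis) against those in A549 (x axis of both panels), with the SLC25 prefix left out of the labels. Colors mark members called in neither line of the panel, in 1 or in both. SLC25A37 lies at the upper right on the left panel and at the lower right on the right panel, where its changes are 1.44 in A549 and -0.54 in NCI-H358.

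Parental cells of the 3 lines already differed in many carriers. Between parental HCC827 and parental A549, 14 members were called, 7 in each direction, and 33.1% of all genes. Between NCI-H358 and A549, 4 members were higher and 8 lower (35.0% of all genes were called), and between NCI-H358 and HCC827, 9 were higher and 8 lower (28.9%). SLC25A21 stood highest in NCI-H358, 3.48 above A549 and 2.47 above HCC827 (adjusted p = 6.29e-13 and 1.09e-10). SLC25A27, an uncoupling protein relative of the brain, also had its highest parental level there, 2.34 above A549 (adjusted p = 1.08e-08), with parental means of 3.84, 5.11 and 6.18 in A549, HCC827 and NCI-H358. The A549 levels of SLC25A21 and SLC25A27 lay in the lower quartile, so the size of their differences from A549 is uncertain. SLC25A16 ran the opposite way, 2.54 lower in NCI-H358 than in HCC827 (adjusted p = 3.88e-13), with A549 between them. Of the members that separated HCC827 from A549, SLC25A45 was lower by 1.61 (adjusted p = 1.46e-09) and SLC25A36, a pyrimidine nucleotide carrier, was higher by 1.43 (adjusted p = 6.54e-12). SLC25A36 differed by 0.35, -0.23 and 0.35 upon EMT. For 35 of the 47 members the range over the 3 parental means was larger than the largest change upon EMT, as it was for 61.4% of all genes. The median range was 0.54 and the median largest change 0.44 over the members, and 0.58 and 0.43 over all genes. SLC25A10, SLC25A1, SLC25A30, SLC25A40 and SLC25A53 were among the 12 where the change upon EMT was larger.

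**Figure D4:**
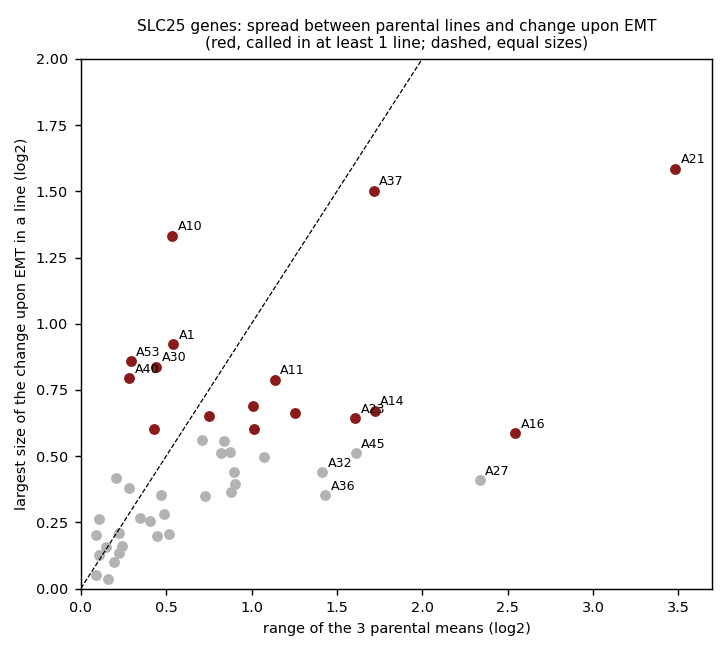
For each of the 47 SLC25 genes, the range of the 3 parental group means (x axis, log2) and the largest size of the change upon EMT in any line (y axis, log2), with members called in at least 1 line in red. The axes are not to the same scale, and points above the dashed line, where both are equal, are members whose largest change exceeded the parental range. Below it lie 35 members, with SLC25A21 farthest to the right at 3.48.

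Carriers that lack an SLC25A symbol and the proteins around the family were read from lists of related genes. Of 5 such relatives (UCP1, UCP2, UCP3, MTCH1 and MTCH2), UCP2, which dissipates the proton gradient or exports metabolites, fell in every line. It went from 11.07, 10.80 and 10.81 to 9.79, 9.77 and 9.88 in A549 (-1.08, adjusted p = 1.09e-06) and from 10.26, 9.67 and 9.75 to 8.60, 8.83 and 8.67 in HCC827 (-1.20, adjusted p = 2.31e-07). In NCI-H358 it went from 10.82, 10.77 and 10.81 to 9.08, 9.17 and 9.12 (-1.67, adjusted p = 4e-09). Its groups did not overlap in any line, and neither did those of MTCH1, MTCH2, SLC25A40 and several other members. Among these members were SLC25A3 and SLC25A5, which were called in no line. The share of all genes without overlap was not counted. MTCH2, an outer membrane relative, fell by 0.65 in A549 and by 0.64 in HCC827 and was not called in NCI-H358. Over all genes, 10.0%, 12.5% and 10.1% were called lower in A549, HCC827 and NCI-H358, and 2.05% in all 3 lines.

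Carriers are made in the cytosol and brought to the inner membrane by the TOM complex, the small TIM chaperones and the TIM22 complex. None of 13 genes of this machinery was called in A549, although 12 of them had an adjusted p below 0.05 (43.4% of all genes) and 12 a negative change (53.2% of all genes), with a median of -0.46. HCC827 had 2 lower (TIMM8B by -0.60 and AGK by -0.72) and NCI-H358 2 higher (FXC1 by 0.95 and TIMM22 by 0.76), named here after their values were seen, with median changes of 0.15 and 0.40. Over all genes, 12.5% were called lower in HCC827 and 8.72% higher in NCI-H358. The change in NCI-H358 was called above that in A549 for 11 of the 13, while 14.3% of all genes were called in this direction. Of the 5 outer membrane and pyruvate channels, VDAC3 (-0.59) and MPC2 fell in A549, MPC2 fell and MPC1 rose in HCC827, and MPC1 rose in NCI-H358 (0.82). Among all genes, 10.0% were called lower in A549 and 9.66% higher in HCC827, and counts among 5 rest on few genes. MPC1 and MPC2 form the pyruvate carrier together, and their changes had opposite signs in A549 (0.58 and -0.98, the former under the fold) and in HCC827 (0.92 and -0.97).

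Of 12 enzymes that make or use the carried metabolites, 2, 3 and 4 were called in A549, HCC827 and NCI-H358, beside 17.4%, 22.2% and 18.8% of all genes in either direction. ARG2, the mitochondrial arginase, forms ornithine, the substrate of SLC25A15. It rose in A549 from 4.37, 4.29 and 4.20 to 6.70, 6.82 and 7.10 (2.59, adjusted p = 7.06e-11) and in NCI-H358 by 1.78 (adjusted p = 8.68e-09), and it fell by 0.59 in HCC827 (adjusted p = 0.0015), and its parental level in A549 and its mesenchymal level in HCC827 lay in the lower quartile, where the array is not shown to read above background and the size of a change is uncertain. OAT, the ornithine aminotransferase, fell by 1.15 in NCI-H358 (adjusted p = 1.92e-10). ACLY, which splits the citrate that SLC25A1 exports, rose in NCI-H358 from 8.59, 8.71 and 8.61 to 10.32, 10.29 and 10.22 (1.64, adjusted p = 4.94e-11), the line in which SLC25A1 was not called. GOT1 in A549 and GOT2 in HCC827, the transaminases of the malate-aspartate shuttle, fell by 0.61 and by 0.71.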

How the data were processed

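Gene expression was measured with a 3' expression array (Affymetrix U133 Plus 2.0) in 18 samples, 3 in each of 6 groups taken from the source names. A figure legend of the study describes array replicates as separate biological samples made at the same time. The labels say nothing of cultures, so p-values measure the spread between these samples, which may be partly technical. The deposited log2 values had been normalized by the authors with RMA (version not given) and reduced to 1 probe set for each gene. The rule for that choice, the annotation version and the values of the other probe sets are not given in the sources used here, and a probe set may read some of a gene's transcripts only. Columns of the table all matched a group, and arrays have no sequencing depth, so the number of arrays limits the precision.

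All 18 arrays entered a single linear model with 6 group means and no further term (limma 3.58.1, R 4.3.3), whose moderated variance pools the groups, because 3 arrays alone estimate the spread of a gene poorly. Benjamini-Hochberg adjustment ran over all 19849 genes, and a fold above 1.5 was required with an adjusted p below 0.05. Differences between lines were contrasts of the same fit. Standard errors of the members' changes were between 0.049 and 0.194. The members, the role groups and the lists of related genes were chosen with earlier results of these data known, and no list was tested as a set. Array values are printed for members called in all lines and for the highest and lowest calls of each line, and for further called members. Related genes are named where the fold was above 2 in a line, or where a list had few calls. The lists hold EMT, keratin and other cell type markers as checks. Promoter windows came from RefSeq on GRCh38.p14, and no protein sequences were used. A few items, 1 member among them, entered every fit and count and are not reported here by name. Scripts were tested on simulated data. Alternatives were other thresholds, separate fits, an intensity trend, median centring, leaving out dim probe sets, leaving out single arrays and the t-test that the methods name. The methods give that t-test for the study's data in general and limma for its arrays.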

Additional observations from a re-analysis of the deposited data

Results flagged for a closer look

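The size or direction of the change upon EMT differed between lines, by a test of the difference itself, for 19 members in 30 comparisons given here. Values are log2 differences of the changes, all past the adjusted p and the fold used above.

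Between HCC827 and A549, HCC827 had the higher change for SLC25A10 (1.05), SLC25A45 (0.85), SLC25A12 (0.67) and SLC25A53 (0.62, adjusted p = 0.0299, the highest p of all). It had the lower change for SLC25A16 (-1.13), SLC25A51 (-0.69) and SLC25A29 (-0.63).

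Between NCI-H358 and A549, NCI-H358 had the higher change for SLC25A23 (0.98), SLC25A1 (0.94), SLC25A10 (0.91), SLC25A30 (0.84), SLC25A15 (0.73), SLC25A45 (0.73), SLC25A33 (0.70), SLC25A13 (0.65) and SLC25A39 (0.61). The change was lower for SLC25A37 (-1.98), SLC25A21 (-1.68) and SLC25A29 (-0.77).

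Between NCI-H358 and HCC827, the change was higher in NCI-H358 for SLC25A1 (1.10), SLC25A16 (1.06), SLC25A23 (1.005), SLC25A39 (0.63), SLC25A17 (0.62), SLC25A38 (0.60) and SLC25A13 (0.59). It was lower for SLC25A37 (-2.04), SLC25A21 (-1.38), SLC25A53 (-0.98) and SLC25A11 (-0.66). SLC25A12, SLC25A13, SLC25A17, SLC25A29, SLC25A38 and SLC25A45 appear here although they were called upon EMT in no line. For SLC25A21 the A549 means and the mesenchymal HCC827 mean lay in the lower quartile, so the size of its differences is uncertain.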

How the results depend on the processing

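Counts of called members depended mainly on the fold threshold. With an adjusted p alone, 23, 19 and 21 members were called in A549, HCC827 and NCI-H358, beside 43.4%, 45.8% and 41.4% of all genes. In all lines 3 members passed in 1 direction, a count whose share over all genes was not computed. By the same rule the changes differed for 16 (HCC827 and A549), 21 (NCI-H358 and A549) and 21 (NCI-H358 and HCC827) members, beside 8379, 8503 and 7516 of the 19849 genes. The parental levels differed for 34, 29 and 31 members, beside 11324, 11496 and 10450 of all genes. With a fold above 2, the counts of members were 2, 1, 1 and 0 upon EMT and 2, 2 and 5 for the changes, and parental HCC827 differed from A549 in 8 members and parental NCI-H358 from HCC827 in 9. With the study's thresholds, 0 members were called upon EMT in any line, 0 changes differed, and 0, 2 and 2 parental levels did. At a fold above 2 and at the study's thresholds the shares over all genes were not counted. The counts of members there cannot be set against them. Separate fits, the intensity trend, centring, the dim filter, the methods' t-test (for the changes in each line) and single arrays left out moved no count of calls, both directions together, by over 1.5 times. Centring moved the higher calls in NCI-H358 from 2 to 4, and the lower calls in A549 from 9 to 7 and in HCC827 from 5 to 4. Among 23 calls of a member in a line, 88 of 91 values under separate fits, the trend, centring and the dim filter (which left out SLC25A53) and 130 of 138 values with 1 array left out kept their call, none changed sign, and the losses are those given beside SLC25A16, SLC25A23, SLC25A33 and SLC25A44, where the fold dropped below 1.5. The causes were not tested. No paired analysis was possible because the labels give the arrays no replicate numbers. Levels in the lower quartile limit SLC25A2, SLC25A31 and SLC25A53 in all groups, SLC25A4 in most, SLC25A21 and SLC25A27 in A549, and SLC25A21 in mesenchymal HCC827.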
